A study of Mus musculus with 4 samples.

Results

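Cyp1b1 and the aryl hydrocarbon receptor (AHR) pathway were examined in RNA-seq of cultured keratinocytes (KCs), the main cells of the epidermis. The group holds 8 genes of the 25814 listed: the receptor gene Ahr, its partner Arnt, the repressors Ahrr and Tiparp, and the targets Cyp1b1, Cyp1a1, Aldh3a1 and Cyp2s1. Cyp1b1 was selected on its reads in these same libraries, where its RNA was strongly higher in Nfat5-Knockout, so its own difference is given as a description without a test. The other genes were picked to ask whether AHR targets moved with it. Of the 8 genes, 6 had enough reads for a test among the 12614 genes tested, and Cyp1a1 and Ahrr did not.

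The libraries came from KCs of the tail epidermis of adult 129/sv mice, grown untreated in serum-free medium with low calcium. They were labelled Wildtype (WT, 2 libraries) or Nfat5-Knockout (Nfat5-/-, 2 libraries), and the series describes them as independent experiments for each genotype. NFAT5 is a transcription factor controlled by osmotic stress. WT mice were littermates of the Nfat5-/- mice. Tails travelled overnight on ice before KCs were prepared. The deleted stretch of Nfat5 is not given in the sources used here. Depth was 16219445 to 23494436 gene reads per library, and the libraries of a group differed by more than sampling noise. Nfat5 reads were 408 and 929 in WT libraries and 715 and 770 in libraries labelled Nfat5-/- (edgeR adjusted p = 0.913). The RNA of the targeted gene therefore does not tell the labels apart. At the protein level, the paper reports a western blot in which KCs of Nfat5-/- mice lacked NFAT5. The keratinocyte markers Krt5 and Krt14 each stood above 4990 RPKM (exon reads scaled by exon length and library depth) in every library. No batch is named in the labels, and p-values measure only the spread between these 4 libraries.

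AHR is a ligand-activated transcription factor of the bHLH-PAS family. It waits in the cytoplasm in a complex with HSP90 and p23, enters the nucleus when it binds a ligand such as dioxin, benzo(a)pyrene or a tryptophan photoproduct, pairs there with ARNT and binds xenobiotic response elements. Its targets include the CYP1 monooxygenases, which oxidise the ligands, and Ahrr and Tiparp, which damp the response. In skin the receptor is known for its part in the response to ultraviolet light and pollutants, in barrier formation and in chloracne. CYP1B1 also oxidises estradiol and retinol.

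The 250 bases upstream of the RefSeq start of Cyp1b1, Cyp1a1 and Ahrr are shown because the AHR:ARNT pair reads the core letters GCGTG, which are in capitals (as CACGC where they lie on the opposite strand). The sequences run 5′ to 3′ on the gene's strand, from RefSeq on GRCm38.p6. The Cyp1b1 stretch is at chr17:79715062-79715311 (minus strand), that of Cyp1a1 at chr9:57697363-57697612 (plus strand) and that of Ahrr at chr13:74292332-74292581 (minus strand). The deposited tables start Cyp1a1 9685 bases further upstream, so this window lies inside the gene as they list it.
Cyp1b1: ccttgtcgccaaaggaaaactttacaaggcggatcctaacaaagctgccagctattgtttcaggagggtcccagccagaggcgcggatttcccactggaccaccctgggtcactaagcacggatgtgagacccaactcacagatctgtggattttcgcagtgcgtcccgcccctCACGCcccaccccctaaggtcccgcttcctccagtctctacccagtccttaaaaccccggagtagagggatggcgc
Cyp1a1: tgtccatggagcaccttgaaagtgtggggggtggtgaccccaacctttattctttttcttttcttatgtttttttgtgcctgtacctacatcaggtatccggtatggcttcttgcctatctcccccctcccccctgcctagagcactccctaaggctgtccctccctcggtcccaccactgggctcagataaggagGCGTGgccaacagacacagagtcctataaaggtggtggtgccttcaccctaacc
Ahrr: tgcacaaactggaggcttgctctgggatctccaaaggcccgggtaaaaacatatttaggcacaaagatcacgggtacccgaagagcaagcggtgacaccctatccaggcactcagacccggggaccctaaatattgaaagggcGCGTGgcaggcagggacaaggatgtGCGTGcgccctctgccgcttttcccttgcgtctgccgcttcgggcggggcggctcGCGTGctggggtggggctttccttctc
Of the 8 genes, 6 had such a promoter entry, and 5 of these 6 held GCGTG on either strand (all but Cyp2s1). The same letters, which are also part of the hypoxia response element core, were in 28.2% of all 32851 promoter windows of this length. Cyp1b1 carried them once, 76 to 72 bases before the start, and Cyp1a1 once, 54 to 50 bases before it, while Ahrr carried 3 copies. The longer form TNGCGTG was in 1 of the 6, Ahrr, against 4.10% of all windows. The letters TGGAAA, one form of the core read by NFAT factors, were in 0 of the 6 and in 18.6% of all windows. Other forms of that core were not counted. A match of letters is not a bound site, and these libraries hold no binding data.

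Cyp1b1 RNA was 0.434 and 0.555 RPKM in the WT libraries and 5.49 and 7.90 RPKM in libraries labelled Nfat5-/-. Both WT libraries were low and both labelled Nfat5-/- were high, with no overlap. The means were 0.494 ± 0.0854 RPKM (SD, n = 2) and 6.69 ± 1.70 RPKM (SD, n = 2), a ratio of 13.5. Cyp1b1 (ENSMUSG00000024087) is listed on the minus strand at positions 79706953 to 79715041 of chromosome 17 (GRCm38) with 3 exons. Gene reads were 37 and 64 against 681 and 775, and 100% of its exon reads were placed at a single site. On the log2 scale the fitted difference was 3.75 (SE 0.25), the 11th highest of the 12614 genes tested. The gene overlaps no other listed gene. Its neighbour Rmdn2, 13760 bases away, had 38 and 61 reads in WT libraries and 65 and 50 in libraries labelled Nfat5-/- (log2 difference 0.09, SE 0.27, edgeR adjusted p = 0.913), with overlapping groups. The neighbour on the other side, Gm37555, had 0 reads in every library.

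**Figure D1:**
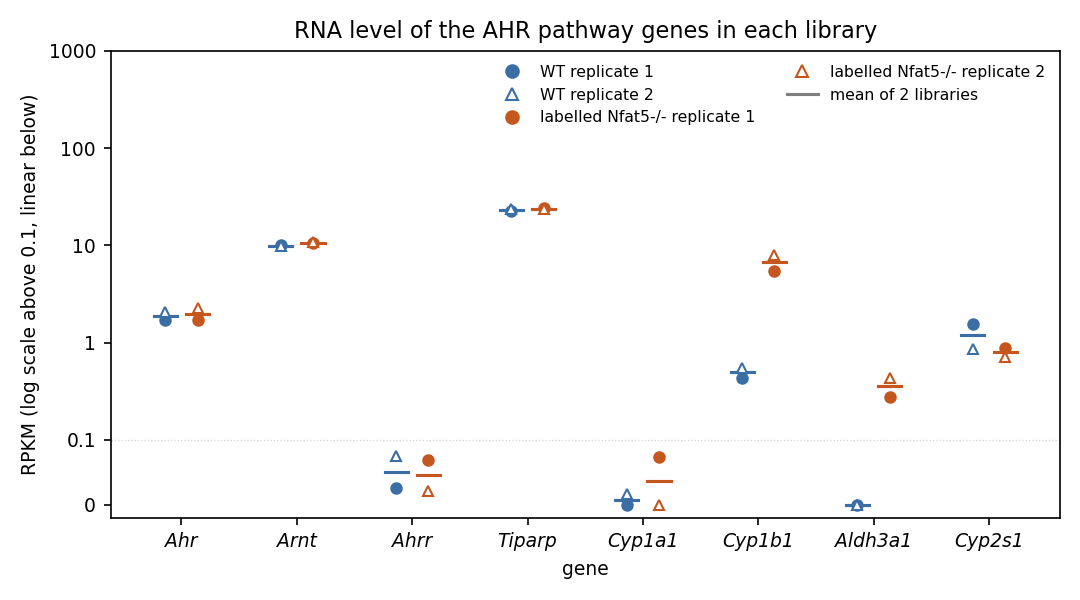
RNA level in RPKM (log scale above 0.1, linear below) of the 8 AHR pathway genes in each library. Circles are replicate 1, triangles replicate 2 and lines the mean of 2 libraries. Cyp1b1 and Aldh3a1 stand apart between the groups, while Tiparp and Ahr lie at like levels in all 4 libraries.

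Of the 7 others, 5 were tested and 0 passed the edgeR quasi-likelihood test with Benjamini-Hochberg adjustment over all genes, where 1.27% of all genes passed. At an unadjusted p under 0.05 the count was 1 (Aldh3a1), against 14.6% of all genes, and DESeq2 called the same gene, against 3.16% of the genes to which it gave an adjusted p. The median log2 difference of the 5 was 0.07, beside -0.01 over all genes tested. In 2 of the 5, Arnt and Aldh3a1, the groups did not overlap in RPKM, as in 46.5% of all genes. In both, the libraries labelled Nfat5-/- lay above the WT libraries, as in 21.6% of all genes.

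Ahr, which encodes the receptor, stood at 1.71 and 2.08 RPKM in WT libraries and at 1.69 and 2.25 RPKM in libraries labelled Nfat5-/-. The groups overlapped, with a log2 difference of 0.07 (95% interval -0.41 to 0.55, edgeR adjusted p = 0.910). Its partner Arnt, which also pairs with the hypoxia factor HIF1A, was at 10.05 and 9.77 RPKM in WT libraries and 10.5 and 10.9 RPKM in libraries labelled Nfat5-/-. All 4 values lay close together, with a log2 difference of 0.12 (95% interval -0.12 to 0.36, edgeR adjusted p = 0.655).

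Of the 12 genes listed for the receptor complex and its cofactors, 11 were tested, and 0 rose and 0 fell (edgeR quasi-likelihood test), with 0 also at an unadjusted p under 0.05 and 0 by DESeq2. Over all genes these shares were 1.27%, 14.6% and 3.16%. Their log2 differences ran from -0.19 to 0.21 with a median of -0.01, the same as over all genes. The lowest was Xpo1, the exporter of nuclear proteins, at 20.1 and 19.8 RPKM in WT libraries and 18.7 and 16.0 RPKM in libraries labelled Nfat5-/- (edgeR adjusted p = 0.473). The highest was Ep300, an acetyltransferase coactivator, at 4.15 and 4.34 against 4.26 and 5.49 RPKM (edgeR adjusted p = 0.569). Hsp90ab1, the main HSP90 gene of these cells, was at 620 and 652 RPKM in WT libraries and at 708 and 698 RPKM in libraries labelled Nfat5-/-. Both of its libraries labelled Nfat5-/- were higher than both WT libraries, but the log2 difference of 0.17 did not pass the test (edgeR adjusted p = 0.479). Hsp90aa1, Ptges3 (the p23 gene), Ncoa1, Ncoa2 and Ncoa3 had log2 differences between -0.17 and 0.10, all with edgeR adjusted p of 0.553 or more. Arnt2, the second ARNT gene, had 2 and 7 reads in WT libraries and 6 and 13 in libraries labelled Nfat5-/- and was not tested.

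Of the feedback genes, Tiparp, an ADP-ribosyltransferase that dampens AHR, was at 22.6 and 23.9 RPKM in WT libraries and at 24.1 and 23.5 RPKM in libraries labelled Nfat5-/-, the highest level among the 8 genes. The groups overlapped, with a log2 difference of 0.06 (95% interval -0.17 to 0.29, edgeR adjusted p = 0.830). Ahrr, the receptor's repressor, had at most 10 reads in any library, with 2 and 8 reads in WT libraries and 10 and 2 in libraries labelled Nfat5-/-. Its ratio of CPM (reads scaled to library size) was 1.08, with a counting interval of 0.427 to 2.78 that does not cover the spread between libraries.

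Cyp1a1, the AHR target with the best-known response to dioxin, had 0 and 1 reads in WT libraries and 5 and 0 in libraries labelled Nfat5-/-. A single library, labelled Nfat5-/- replicate 1, held all 5 reads of its group, and the ratio of 4.49 has a counting interval of 0.502 to 212, so no difference was detectable at this depth. Without a filter on low counts the adjusted edgeR p was 0.787. Cyp1a2 had 0 reads in all 4 libraries, where 3 reads would be 0.128 to 0.185 CPM. Thus Cyp1b1 was the only CYP1 gene with more than 5 reads in any library.

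Aldh3a1, an aldehyde dehydrogenase of the AHR gene battery, had 0 and 0 reads in WT libraries and 13 and 16 in libraries labelled Nfat5-/-, or 0.278 and 0.432 RPKM. The groups did not overlap, and against a floor of 3 reads per WT library its mean CPM was at least 4.36-fold higher in libraries labelled Nfat5-/-. It passed the filter on low values only through the group where it was high, and with an edgeR adjusted p of 0.0645 (0.00111 unadjusted) it did not pass the test. The adjusted p was under the threshold of 0.05 in 5 of 12 other ways of processing, DESeq2 among them (0.0381), with a range of 5.2e-05 to 0.174. It was highest without the library labelled Nfat5-/- replicate 1, and without the library labelled Nfat5-/- replicate 2 the gene fell below the filter. Cyp2s1, an AHR-inducible P450 of epithelia, was at 1.55 and 0.871 RPKM in WT libraries and at 0.891 and 0.717 RPKM in libraries labelled Nfat5-/-. WT replicate 1 stood above the other 3 libraries, and the log2 difference of -0.56 (95% interval -1.36 to 0.23, edgeR adjusted p = 0.502) did not pass the test. It was -0.08 without WT replicate 1 and -0.94 without WT replicate 2.

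In WT libraries the 8 genes ran, by RPKM, from Tiparp (mean 23.2) through Arnt, Ahr (1.90), Cyp2s1 (1.21) and Cyp1b1 (0.494) to Ahrr, Cyp1a1 and Aldh3a1. Cyp1a1 and Aldh3a1 were not separated. In libraries labelled Nfat5-/- Cyp1b1 came after Tiparp and Arnt, at 6.69 RPKM, above Ahr (1.97) and Cyp2s1 (0.804) without overlap, while Arnt was at 10.7 RPKM. Ahrr and Cyp1a1 stayed at the bottom and overlapped.

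The wider AHR target battery was read without Cyp1b1. Of 15 core targets other than Cyp1b1, 11 were tested; 0 rose and 0 fell in edgeR, where 1.27% of all genes passed. At an unadjusted p under 0.05 there were 4, against 14.6% of all genes, and DESeq2 called 1 (Aldh3a1), against 3.16%. The 4 went both ways: Aldh3a1 and Nqo1 were higher, and Xdh and Slc7a5 lower, in libraries labelled Nfat5-/-. The median of the 11 was -0.06. Nqo1, a quinone reductase that answers to NRF2 as well as to AHR, was at 16.2 and 14.7 RPKM in WT libraries and 20.2 and 20.6 RPKM in libraries labelled Nfat5-/-. Its groups did not overlap, and its log2 difference of 0.42 (SE 0.12) had an edgeR adjusted p of 0.169. Xdh, the xanthine dehydrogenase gene, was at 17.5 and 13.4 RPKM in WT libraries and 11.2 and 10.1 RPKM in libraries labelled Nfat5-/-. Both WT libraries were higher, and the log2 difference of -0.52 (SE 0.15) had an edgeR adjusted p of 0.169, which became 0.0235 without WT replicate 2 and 0.297 to 0.687 without any other single library. Slc7a5, an amino acid transporter, was at 118 and 94.9 RPKM in WT libraries and at 84.0 and 65.2 RPKM in libraries labelled Nfat5-/- (log2 difference -0.49, edgeR adjusted p = 0.207). Of its exon reads, only 16.1% were placed at a single site.

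Apart from Cyp2s1, given above, the other core targets lay nearer to 0 or rested on few reads. Nfe2l2, which encodes NRF2, was at 47.0 and 43.2 RPKM in WT libraries and 48.5 and 47.0 RPKM in libraries labelled Nfat5-/- (log2 difference 0.09, edgeR adjusted p = 0.724). Serpinb2, the most abundant core target, was at 533 and 524 against 512 and 488 RPKM (log2 difference -0.06, edgeR adjusted p = 0.822). Scin had 8 and 38 reads in WT libraries and 21 and 16 in libraries labelled Nfat5-/-, with WT replicate 2 the highest (edgeR adjusted p = 0.808). Gsta1 had 0 and 4 reads in WT libraries and 25 and 0 in libraries labelled Nfat5-/-, so the 25 came from 1 library, and it was not tested. The glucuronosyltransferase genes Ugt1a6a and Ugt1a6b overlap other Ugt1a genes, and their log2 differences of 0.40 and -0.31 (edgeR adjusted p = 0.474 and 0.732) are uncertain for that reason.

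**Figure D2:**
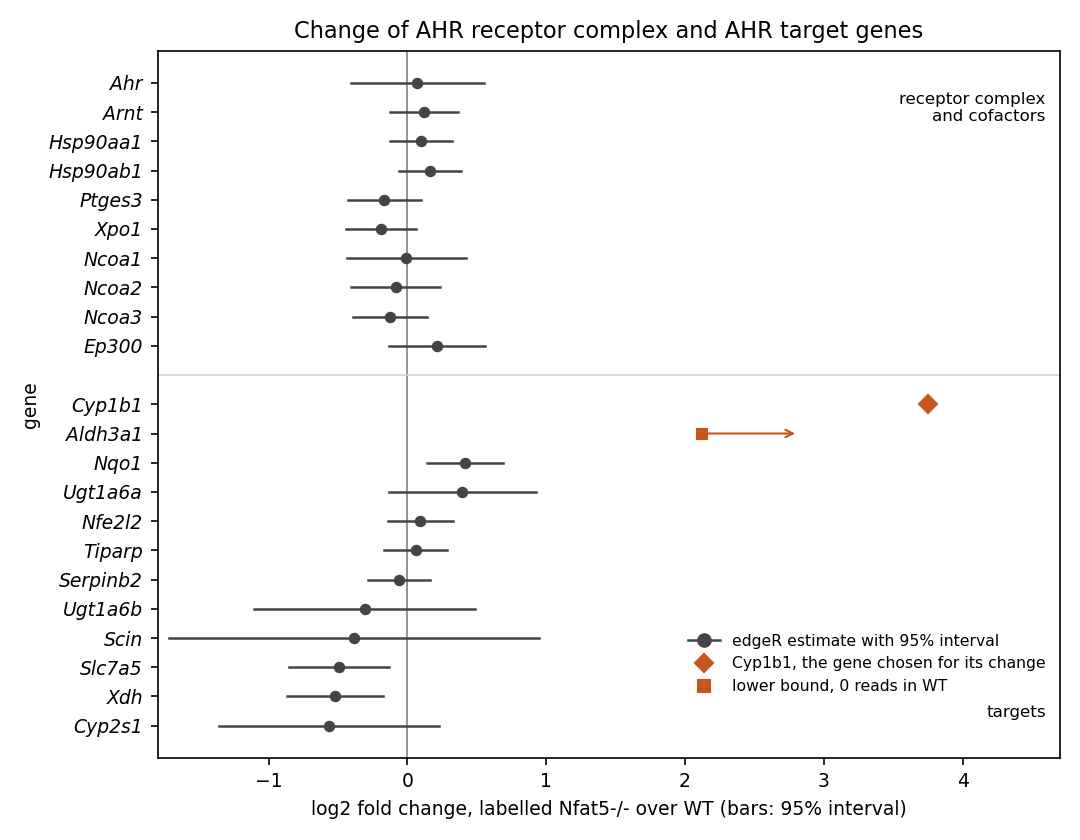
Log2 fold change (labelled Nfat5-/- over WT) of tested genes of the receptor complex (top) and of the AHR targets (bottom), with 95% intervals from edgeR. Cyp1b1 at 3.75 (diamond, chosen for its change, no interval drawn) and the lower bound of Aldh3a1 at 2.12 (square) stand to the right of all other genes, which lie between -0.56 and 0.42.

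Genes that AHR can raise in epidermis and in inflammation were listed apart. Of 15 such genes, 11 were tested, and 0 rose and 0 fell in edgeR, with 2 at an unadjusted p under 0.05 (14.6% of all genes), 1 called by DESeq2 (Ereg, against 3.16%) and a median of 0.06. In 6 of the 11 both libraries labelled Nfat5-/- lay above both WT libraries in RPKM, as in 21.6% of all genes. That median is the value of Flg, the filaggrin gene, named after its values were seen. Its gene reads lay mostly in introns (626 and 828 in WT libraries, 881 and 617 in libraries labelled Nfat5-/-). Its exon reads were 24 and 44 against 77 and 159, or 0.201 and 0.277 RPKM against 0.446 and 1.16 RPKM, with no overlap, and with exon reads the median of the list was 0.13. The 2, named after their values were seen, were Ereg and Lor. Ereg, an EGF receptor ligand, was at 4.43 and 2.91 RPKM in WT libraries and at 8.64 and 6.90 RPKM in libraries labelled Nfat5-/- (log2 difference 1.11, edgeR adjusted p = 0.0628, 0.00598 and 0.0387 without WT replicate 1 or 2, and 0.224 and 0.214 without Nfat5-/- replicate 1 or 2). Lor, which encodes the cornified envelope protein loricrin, was at 2.54 and 2.59 against 3.94 and 6.07 RPKM (log2 difference 0.998, edgeR adjusted p = 0.134). In both genes the groups did not overlap. Ptgs2, the cyclooxygenase-2 gene, was at 198 and 150 RPKM in WT libraries and 195 and 154 RPKM in libraries labelled Nfat5-/- (log2 difference 0.02, edgeR adjusted p = 0.966). Il1a ranged from 97.0 to 168 RPKM, with overlapping groups (edgeR adjusted p = 0.821).

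Genes of tryptophan uptake and breakdown, which supply AHR ligands, were listed too. Among the breakdown genes, Ido1 and Haao had 0 reads in every library, and Ido2, Kynu, Kmo and Tdo2 had at most 3. Of 10 genes, 4 were tested and 0 passed in edgeR or in DESeq2, with 2 at an unadjusted p under 0.05 (14.6% of all genes), both lower: Slc7a5, given above, and its partner Slc3a2. All 4 lay below WT without overlap in RPKM, as did 25% of all genes. Slc3a2 was at 102 and 79.2 RPKM in WT libraries and 69.5 and 59.005 RPKM in libraries labelled Nfat5-/-, with no overlap (log2 difference -0.48, edgeR adjusted p = 0.202, 0.0371 without WT replicate 2, and 0.269 to 0.762 without any other single library). The median of the 4 was -0.44.

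Other factors of the bHLH-PAS family, which share ARNT or its kind of fold, gave 0 passing genes of 10 tested in edgeR and 0 in DESeq2, with 1 at an unadjusted p under 0.05 (14.6% of all genes) and a median of -0.03. That one, Epas1 (HIF2A), was at 0.430 and 0.383 RPKM in WT libraries and 0.719 and 0.996 RPKM in libraries labelled Nfat5-/- and was named after its values were seen (log2 difference 1.11, edgeR adjusted p = 0.116). Hif1a was at 35.9 and 30.7 against 29.1 and 30.3 RPKM (log2 difference -0.15, edgeR adjusted p = 0.621). Per1, a clock gene, was at 16.3 and 11.8 against 12.1 and 13.5 RPKM, with overlapping groups (edgeR adjusted p = 0.811).

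Cyp1b1 was also set against the whole P450 family. Of 94 P450 genes listed, 39 had no read in any library and 75 had at most 10 reads in each, so that 17 were tested. Without Cyp1b1, 1 of 16 rose in edgeR, where 0.943% of all genes rose, and 0 fell (0.325% of all genes). DESeq2 fitted 54 P450 genes other than Cyp1b1 and called 1 higher and 0 lower, against 3.16% of all genes in either direction. At an unadjusted edgeR p under 0.05 there were 2 of the 16, against 14.6% of all genes. Of these, 1 was higher and 1 lower (Cyp39a1, named after its values were seen). The gene that rose was Cyp4f39, a fatty acid omega-hydroxylase of ceramide synthesis in epidermis, at 0.339 and 0.141 RPKM in WT libraries and 1.43 and 2.65 RPKM in libraries labelled Nfat5-/- (log2 difference 3.14, SE 0.53, edgeR adjusted p = 0.0440). The groups did not overlap. It had 9 and 5 reads in WT libraries and 55 and 81 in libraries labelled Nfat5-/-, so it passed the filter on low values only through the group where it was high, and with at least 10 reads asked of every library 0 of 13 P450 genes rose. The adjusted p rose to 0.0958 and 0.309 when replicate 1 or 2 of the libraries labelled Nfat5-/- was left out. The P450 genes other than Cyp1b1 overlapped between groups in their sum: summed RPKM without Cyp1b1 was 49.1 and 48.5 in WT libraries and 47.5 and 49.3 in libraries labelled Nfat5-/-. Cyp20a1 and Cyp4f16, the most abundant and named after their values were seen, ranged from 8.62 to 11.3 RPKM with overlapping groups.

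**Figure D3:**
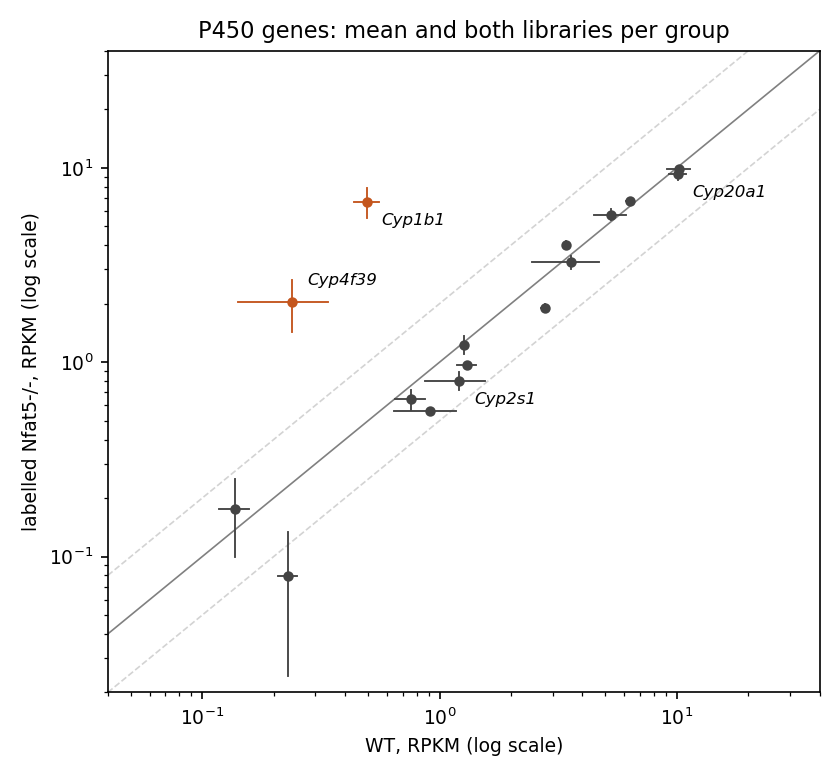
Mean RPKM of P450 genes in WT (horizontal, log scale) and in libraries labelled Nfat5-/- (vertical, log scale), for the tested genes with a WT level above 0. Bars span both libraries of a group, the solid line marks equal levels and the dashed lines 2-fold. Cyp1b1 and Cyp4f39 lie above the upper dashed line.

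The electron donors that P450 enzymes need gave 0 passing genes of 6 in edgeR, with 2 at an unadjusted p under 0.05 (14.6% of all genes) and 1 called by DESeq2 (Cyb5r1, against 3.16%). Por, the P450 reductase gene, named for that role after its values were seen, was at 55.9 and 49.8 RPKM in WT libraries and at 55.6 and 60.014 RPKM in libraries labelled Nfat5-/- (log2 difference 0.10, edgeR adjusted p = 0.729). Pgrmc1, which binds P450 enzymes, was at 83.9 and 79.6 against 99.5 and 99.1 RPKM (log2 difference 0.30, edgeR adjusted p = 0.231). Cyb5r1, named after its values were seen, was at 47.3 and 38.2 against 28.1 and 24.0 RPKM, lower in both libraries labelled Nfat5-/- (log2 difference -0.69, edgeR adjusted p = 0.0693, 0.0111 without WT replicate 2, and 0.127 to 0.437 without any other single library).

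Retinol and estradiol are substrates of CYP1B1, so genes handling them were read beside it. Of 20 retinoid genes, 13 were tested, 0 passed in edgeR, 1 passed in DESeq2 (Crabp2), and 5 had an unadjusted p under 0.05, all higher in libraries labelled Nfat5-/-. Over all genes 14.6% had such a p, and 8.17% had it and were higher. The median of the 13 was 0.04. Crabp2, a retinoic acid carrier named after its values were seen, was at 9.43 and 5.09 RPKM in WT libraries and at 16.5 and 24.0 RPKM in libraries labelled Nfat5-/- (log2 difference 1.52, edgeR adjusted p = 0.0767, 0.00778 and 0.0471 without WT replicate 1 or 2, and 0.137 and 0.452 without Nfat5-/- replicate 1 or 2). Aldh1a3, which makes retinoic acid, was at 32.8 and 44.9 against 30.1 and 31.3 RPKM (log2 difference -0.32, edgeR adjusted p = 0.401). The retinoic acid receptor gene Rarg was at 24.4 and 23.8 against 21.1 and 23.9 RPKM (edgeR adjusted p = 0.794). Of 11 estrogen genes, 6 were tested, and 0 passed in edgeR or DESeq2, also at an unadjusted p under 0.05, with a median of 0.11, where 1.27%, 3.16% and 14.6% of all genes passed. In RPKM 4 of the 6 lay above WT and 1 below without overlap, against 46.5% of all genes in either direction. Hsd17b12 was at 117 and 127 RPKM in WT libraries and at 133 and 132 RPKM in libraries labelled Nfat5-/- (log2 difference 0.13, edgeR adjusted p = 0.592).

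Lists of markers of other cell types were read beside Cyp1b1. Of 8 smooth muscle and pericyte markers, 5 were tested and all 5 rose in edgeR, where 0.943% of all genes rose, and 2 of 5 with limma-trend on log2(RPKM + 1). Their summed level was 186 and 153 RPKM in WT libraries and 524 and 832 RPKM in libraries labelled Nfat5-/-. Acta2, the smooth muscle actin gene, was at 164 and 134 RPKM in WT libraries and 450 and 723 RPKM in libraries labelled Nfat5-/- (edgeR adjusted p = 0.0192), and Tagln had an edgeR adjusted p of 0.00768. Cnn1, Myl9 and Myh11 also rose, but lost the call without the library labelled Nfat5-/- replicate 2 (edgeR adjusted p = 0.275, 0.162 and 0.294). Cnn1 lost it without replicate 1 of that label too (0.0668), and Myh11 whichever library was left out (0.0535 to 0.294). The 3 untested markers of that list were near 0: Rgs5 had 0 reads in every library, Des 1 read in 1 library, and Actg2 1 and 2 reads in WT libraries and 5 and 6 in libraries labelled Nfat5-/-. Myh11, with 1 and 1 reads in WT libraries and 22 and 40 in libraries labelled Nfat5-/-, passed the filter on low values only through the group where it was high, and with at least 10 reads asked of every library 4 markers were tested and 4 rose. The presence of smooth muscle cells or pericytes, and their part in the Cyp1b1 result, were not tested. In bulk RNA, a change in the number of cells of a type and a change in RNA per cell cannot be told apart.

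Fibroblasts, which express Cyp1b1 in many tissues, had 8 markers listed, of which 3 were tested. In edgeR and in DESeq2 0 of them passed, against 1.27% and 3.16% of all genes. Col1a1 had 41 and 34 reads in WT libraries and 44 and 91 in libraries labelled Nfat5-/- (log2 difference 0.74, edgeR adjusted p = 0.547). Pdgfra had 19 and 14 against 38 and 26 reads, with no overlap (log2 difference 0.78, edgeR adjusted p = 0.439). In RPKM 21.6% of all genes lay above WT without overlap. Thy1, named after its values were seen, had 2 and 5 against 19 and 29 reads, with no overlap, and was the one marker with an unadjusted p under 0.05, against 14.6% of all genes (log2 difference 2.65, edgeR adjusted p = 0.102). It passed the filter on low values only through the group where it was high, and with at least 10 reads asked of every library 2 fibroblast markers were tested and 0 passed. The summed level of the list was 0.653 and 0.539 RPKM in WT libraries and 0.934 and 1.85 RPKM in libraries labelled Nfat5-/-, higher without overlap, and Col1a2, Col3a1, Dcn and Lum had at most 6 reads in each library. The part of these cells in the Cyp1b1 result was not tested. Of the melanocyte markers 1 of 4 tested fell in edgeR, where 0.325% of all genes fell, and DESeq2 called 2 lower (Tyrp1 and Pmel), against 3.16% called in either direction. At an unadjusted p under 0.05 there were 3, all lower (Tyrp1, Dct and Pmel), against 14.6% of all genes, and all 4 lay below WT without overlap in RPKM, as did 25% of all genes. The gene that fell in edgeR was Tyrp1 (log2 difference -2.04, edgeR adjusted p = 0.0203, and 0.0939 and 0.0800 without replicates 1 and 2 of the libraries labelled Nfat5-/-). The summed melanocyte level was 7.51 and 7.14 RPKM against 2.05 and 2.94 RPKM. Summed keratinocyte markers overlapped, at 13257 and 11434 RPKM in WT libraries and 11436 and 13093 RPKM in libraries labelled Nfat5-/-. Of these 8 markers, 0 passed in edgeR or DESeq2, and 1 had an unadjusted p under 0.05 (Itga6, named after its values were seen). Over all genes these shares were 1.27%, 3.16% and 14.6%. Endothelial and immune markers passed in 0 of 3 and 0 of 2 tested, also by DESeq2 and at an unadjusted p under 0.05. Beside those shares, counts over so few genes say little. Their summed levels were 0.738 to 0.899 and 2.08 to 3.73 RPKM, and Schwann and Merkel cell markers were too low to be tested.

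**Figure D4:**
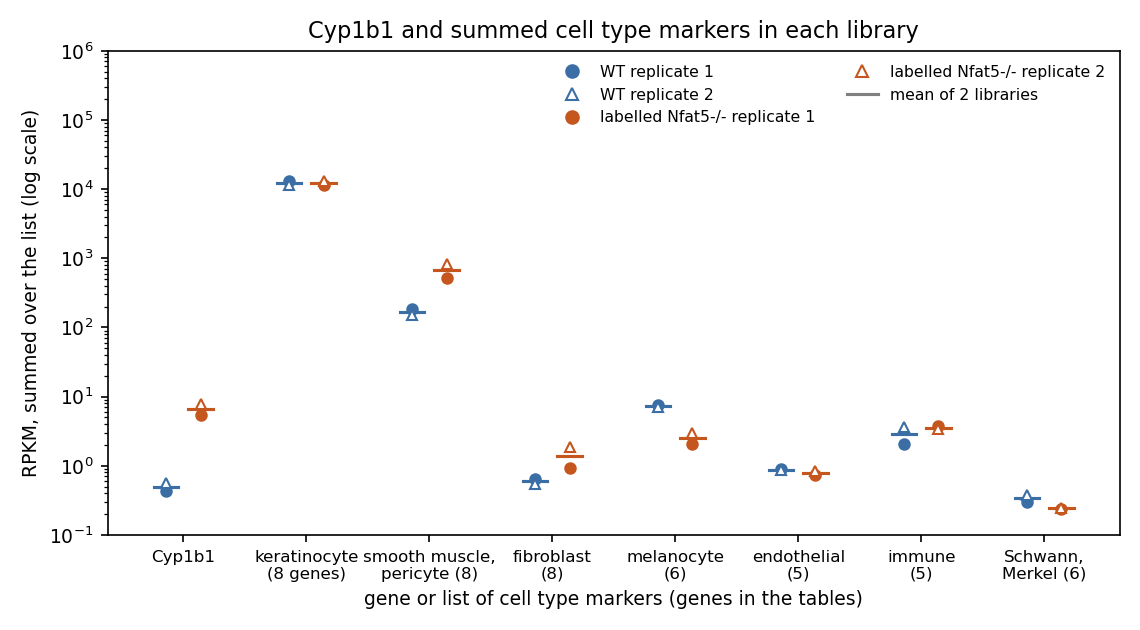
Cyp1b1 RPKM and the summed RPKM of each list of cell type markers (log scale) in each library. Circles are replicate 1, triangles replicate 2 and lines the mean of 2 libraries. Cyp1b1 and the smooth muscle and fibroblast lists are higher in libraries labelled Nfat5-/-, the melanocyte list is lower, the endothelial and the Schwann and Merkel lists are lower by a narrow margin, and the keratinocyte and immune lists overlap.

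The genes whose profile over the 4 libraries was nearest to that of Cyp1b1, by root mean square difference of centred log2 CPM, were Aldh3a1 (0.155), Myh11 (0.309), Lhfpl1 (0.405), S1pr1 (0.419) and Lcn2 (0.424). The profiles of the first pair rest on few reads, those given above. Lhfpl1 had 1 and 2 reads in WT libraries and 61 and 36 in libraries labelled Nfat5-/-, of which 58 and 32 lay in introns and 3 and 4 in exons. S1pr1, a sphingosine-1-phosphate receptor gene, had 2 and 9 against 53 and 67 reads. Lcn2, which encodes the iron-binding defence protein lipocalin 2, had 12 and 10 against 171 and 129 reads. These genes were ranked on the same 4 libraries that chose Cyp1b1, so their likeness is a description.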

How the data were processed

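Polyadenylated RNA of cultured tail KCs was sequenced in 4 libraries, grouped by the genotype in their titles. The authors trimmed the reads, aligned them to GRCm38 with the CLC Genomics Workbench at default settings and deposited, for each gene and library, raw read counts (whole gene, exons, introns) and RPKM values with decimal commas. Annotation and use of strand are not given in the sources used here, so antisense and overlapping genes are uncertain. Members and gene lists were chosen with earlier results of these data known. Deposited counts of gene reads were tested with edgeR 4.0.16 in R 4.3.3 (filterByExpr, TMM, quasi-likelihood test, 12614 genes) and two-sided p-values received a Benjamini-Hochberg adjustment across these genes (threshold 0.05). Levels are the deposited RPKM. Promoter windows came from RefSeq. Genes named are the 8 members, Nfat5 and the receptor, repressor and core target lists. Added to these are P450 genes past the threshold, neighbours of Cyp1b1 and the 5 profiles most like it. From other lists they are the genes past the threshold and the 2 most abundant that did not pass. Others are said to be named after their values were seen, or are given as having few reads or none. Alternatives were other scalings, other filters, DESeq2 1.42.0, limma 3.58.1 (trend method, RPKM logged with a pseudocount of 1 or 0.1), exon or uniquely placed reads, a replicate block and each library left out. The main edgeR fit, but not the alternatives, was tested on simulated data. Depth is 16219445 to 23494436 gene reads. Floors and the counting intervals of Cyp1a1 and Ahrr cover counting error only, whereas the edgeR intervals also include the spread between libraries. Of the list genes, 3 are not analysed here, and some that enter the counts are not reported here by name.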

Additional observations from a re-analysis of the deposited data

Results flagged for a closer look

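The tables also give, for each gene, the reads that cross exon-exon junctions and the reads in introns. Both are part of the gene reads tested above, and neither was compared on its own. They were looked at in the 8 genes, and 5 sets of more than 3 reads stood, relative to library size, above both WT libraries in both libraries labelled Nfat5-/-, which flagged them. Of junction reads these were 3 of the 6 genes with more than 3 reads in libraries labelled Nfat5-/-, against 23.3% of all genes, and of intron reads 2 of 4, against 11.6%. Cyp1b1, which was chosen for its reads, is among both. Cyp1b1 had 0 and 2 junction reads in WT libraries and 8 and 17 in libraries labelled Nfat5-/-, 25 in all against 2. Its intron reads were 0 and 1 against 3 and 2, 5 in all against 1. Aldh3a1 had 0 and 0 junction reads in WT libraries and 4 and 8 in libraries labelled Nfat5-/-, 12 in all. Arnt had 280 and 346 junction reads against 419 and 337, 756 in all against 626. Tiparp had 30 and 46 intron reads against 57 and 41, 98 in all against 76. None of these differences was tested.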

How the results depend on the processing

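The replicate numbers gave no sign of a pairing of the libraries (correlation of same-numbered deviations -0.0585). With 2 libraries per label this cannot show that they are unpaired. With the replicate block 132 genes passed in place of 160, Aldh3a1 had an adjusted p of 0.0918, Cyp4f39 lost its call (0.0759) and Ereg gained one (0.0297). Over all genes, 160 passed; the count was 1137 with no filter on low counts, 416 with DESeq2 and 77 with limma-trend on log2(RPKM + 1), and 16 to 478 with 1 library left out (268 without WT replicate 1, 478 without WT replicate 2, 31 without Nfat5-/- replicate 1 and 16 without Nfat5-/- replicate 2). The count of core targets other than Cyp1b1, 0, became 3 with no filter (Aldh3a1, Xdh, Slc7a5) and 1 (Aldh3a1) with library totals, DESeq2, limma-trend on log2(RPKM + 0.1) and uniquely placed exon reads, and was 0 to 1 with 1 library left out (1, Xdh, without WT replicate 2). The count of members other than Cyp1b1, 0, became 1 (Aldh3a1) with no filter, library totals, DESeq2, limma-trend on log2(RPKM + 0.1) and uniquely placed exon reads. The log2 difference of Cyp1b1 was 2.35 with limma-trend on log2(RPKM + 1) and 3.46 to 4.01 with 1 library left out. That of Ahr ran from -0.16 to 0.28 over the alternatives, below 0 (-0.05 and -0.16) without WT replicate 1 or Nfat5-/- replicate 2. The cause was not tested. Depth limits Cyp1a1, Ahrr and Gsta1, whose few reads did not pass the filter.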
